A study of Mus musculus with 16 samples.

Results

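The comparison set pancreatic neuroendocrine tumours that grew on the C3H background directly against B6 tumours after a short block of the NMDA receptor, over all expressed genes and not by way of the shared B6 controls. It rested on 9 of the 16 libraries of the series: 4 from C3H tumours and 5 from MK801-treated B6 tumours. All mice carried the RIP1Tag2 transgene, in which the SV40 T antigens are driven by the rat insulin promoter, so that beta cells of the islets become tumours, and all were 14 to 16 weeks old, the end stage of the disease. The C3H mice (strain C3HeB/Fe) were either untreated or given normal saline, and the labels do not say which library is which. The treated mice were of the C57Bl/6 (B6) strain and received MK801 intraperitoneally at 1 mg/kg once a day for 3 days. A further 7 libraries from untreated or saline-treated B6 tumours served only to estimate the spread and to show the B6 level of each gene. Strain and drug differed together between the C3H and the MK801-treated tumours, so this contrast by itself does not separate the background from the drug, and the level in B6 controls is given beside it for many genes. Whether every library stands for its own mouse is not stated in the labels; the p-values therefore reflect the scatter of these libraries, part of which may be technical.

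The NMDA receptor is a glutamate-gated cation channel made of GluN1 subunits, encoded by Grin1, with GluN2 subunits, encoded by the Grin2 genes. At synapses it is held by PSD-95 and by GKAP, the product of Dlgap1, which links PSD-95 to the Shank and Homer scaffold. MK801 (dizocilpine) blocks the open channel. In this tumour model the receptor is studied as a route by which glutamate, set free as fluid flows through the tumour, promotes invasion, and the title of the series names GKAP as a genetic modulator of that signalling.

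Messenger RNA was sequenced from whole tumours, and estimated counts per library were 38561300 to 57013800. The unit of a level is CPM, the counts of a gene for every 1e+06 in its scaled library. The insulin transcripts, which define the labelled cell type, took 2.14% to 8.85% of the counts in the 9 libraries, and acinar enzymes of the surrounding exocrine pancreas took 0.00143% to 4.45%, with wide ranges in both groups. In bulk tissue fewer cells of a type and less RNA per cell cannot be told apart.

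Of 16084 genes tested, 953 differed between C3H and MK801-treated tumours at an adjusted p under 0.05 (edgeR's quasi-likelihood test with Benjamini-Hochberg adjustment), which is 5.93% of those tested. In C3H tumours 493 genes were higher (3.07%) and 460 were lower (2.86%). For 870 of the 953, the ranges of the 4 C3H and the 5 MK801 libraries did not overlap. Over all genes tested, the C3H range lay wholly above the MK801 range for 5.7% and wholly below it for 6.37%. The median log2 fold change of all genes was 0.01. A 95% interval within 1 log2 unit of 0 on both sides was reached by 7545 genes, or 46.9%, so for the rest a change of at least 1 log2 unit in some direction lay within the error. The number of calls depended on single libraries: without C3H replicate 2 it was 254 higher and 197 lower. With a leukocyte score as a covariate, the mean of the macrophage and of the T and NK marker levels, 71 were higher and 129 lower, and of the 66 called genes among those named by rule 38 lost their call. Group medians of these marker levels were higher in C3H tumours: 5.14 against 4.73 log2 CPM for macrophages and -0.07 against -1.59 for T and NK cells. The covariate thus overlaps with the contrast, and a lost call can reflect a wider error as well as a smaller difference. With and without it, the median log2 fold change was -1.17 and -1.10 for mitosis genes, and 1.23 and 1.78 for interferon-stimulated genes.

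The B6 control mean lay between both groups for 792 of the 953 genes. These genes were selected for their difference between C3H and MK801-treated tumours, and the position of the B6 mean was not counted over all tested genes. The counts here are therefore a description of the called genes only. Among genes lower in C3H tumours it was nearer to the MK801-treated tumours for 391 and nearer to the C3H tumours for 69. Among genes higher in C3H tumours the split was 238 nearer to MK801 and 255 nearer to C3H. Measured against those controls, 2.4% of genes passed the test in C3H tumours and 0.622% in MK801-treated tumours. Both of those comparisons share the same control samples, so their overlap is not given.

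**Figure D1:**
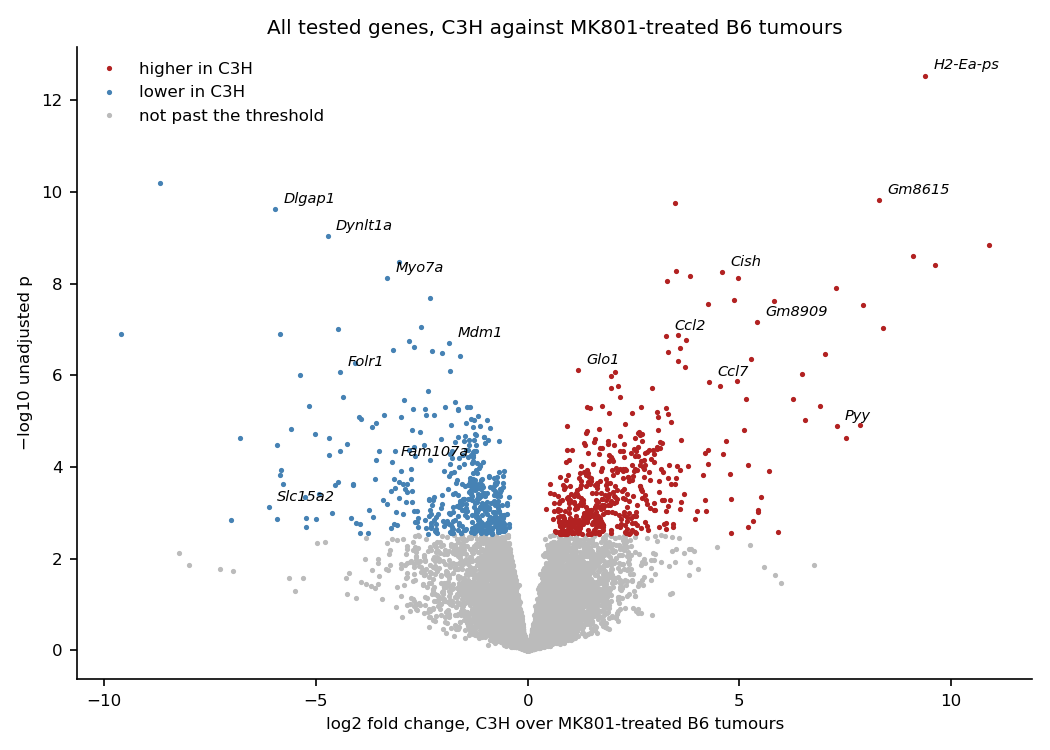
Each point is 1 of 16062 tested genes (22 further rows, whose symbols had turned into dates, are not drawn), with the log2 fold change of C3H over MK801-treated B6 tumours on the horizontal axis and -log10 of the unadjusted p on the vertical axis. Red points are the 493 genes higher in C3H tumours and blue points the 460 lower, and H2-Ea-ps, Gm8615, Dlgap1 and Dynlt1a stand among the smallest p-values.

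Genes known to differ between these strains checked the labels first. H2-Ea-ps, the E alpha class II gene that B6 mice carry in a silent form, had 28.7, 43.3, 35.7 and 28.9 CPM in the C3H tumours, against 0.0205, 0.0884, 0.0775, 0.0437 and 0.0181 CPM in the MK801-treated tumours. No MK801-treated library held more than 4 estimated counts of it, and the C3H tumours were higher in 4 of 4 libraries (adjusted p = 4.66e-09). Glo1, the glyoxalase gene that is duplicated in several inbred strains, had 224, 159.7, 220.5 and 171 CPM in the C3H tumours, against 78.8, 83.3, 72.9, 85.7 and 107 CPM in the MK801-treated tumours (log2 fold change 1.18 ± 0.15 (SE), adjusted p = 0.000264). Sp110, known as Ipr1 and lost in C3HeB/Fe mice, had 1.27, 2.58, 1.31 and 1.32 CPM in the C3H tumours, against 5.92, 3.93, 3.41, 3.08 and 6.87 CPM in the MK801-treated tumours (log2 fold change -1.52 ± 0.35 (SE), adjusted p = 0.0175). The Sp110 difference did not pass with the replicate number as a block (adjusted p = 0.0594) or without C3H replicate 4 (0.0524). The ranges of H2-Ea-ps, Glo1 and Sp110 did not overlap between the groups. Nnt, Pde6b and Wdfy1 did not pass the test, with 95% intervals of -0.77 to 0.33, -4.45 to -0.48 and -0.38 to 0.41 on the log2 scale. Of the sex-linked genes Xist, Ddx3y, Kdm5d, Eif2s3y and Uty, 0 of 5 passed, and MK801 replicate 4 had the highest level of each among the 9 libraries.

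Dlgap1, the gene for GKAP, was almost silent in C3H tumours and well expressed in MK801-treated tumours. It had 0.203, 0.292, 0.678 and 0.967 CPM in the C3H tumours, against 37.6, 28.7, 24.7, 39.8 and 37.7 CPM in the MK801-treated tumours. All 4 C3H libraries stayed under 1 CPM and the fitted level was 62.2-fold higher in the MK801-treated tumours (log2 fold change -5.96 ± 0.42 (SE), adjusted p = 7.49e-07). B6 controls held 23.8 to 38.2 CPM (median 28.3), within reach of the MK801-treated tumours. Every one of the 23 alternatives tried kept this call. The 5 tested genes on either side of Dlgap1 on chromosome 17 did not share the difference: 0 of 10 passed, with log2 fold changes between -0.72 (Myom1) and 0.57 (A330050F15Rik). The tested genes next to Dlgap1, A330050F15Rik and Tgif1, had log2 fold changes of 0.57 and -0.21. Zfp161, a transcription factor gene further out among the 10, had the fold change nearest to 0. It had 69.4, 88.1, 90.6 and 71.8 CPM in the C3H tumours, against 70.2, 78.02, 75.2, 75.8 and 88.6 CPM in the MK801-treated tumours, so both groups lay in the same range.

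**Figure D2:**
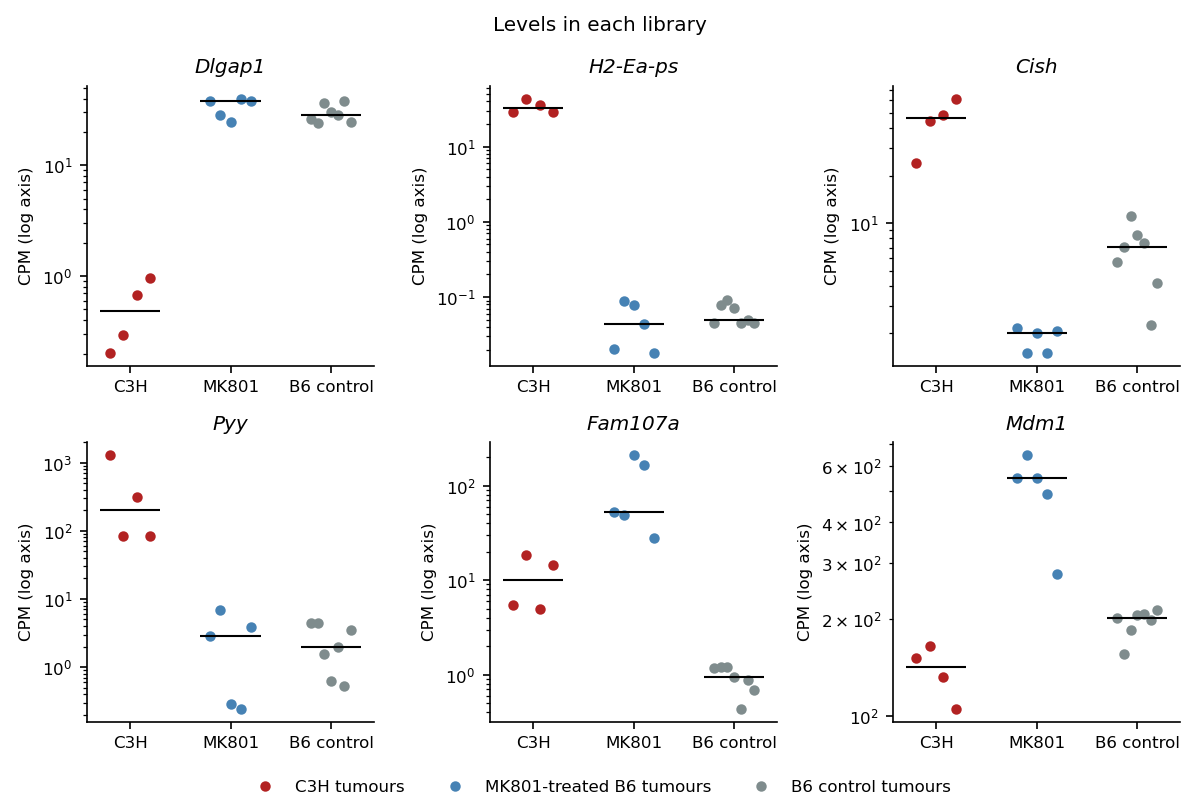
Each point is 1 library and each black line a group median, with CPM on logarithmic axes, for C3H tumours (4 libraries), MK801-treated B6 tumours (5) and B6 controls (7). Dlgap1 is low and H2-Ea-ps, Cish and Pyy are high in C3H tumours, while Fam107a and Mdm1 are highest in MK801-treated tumours.

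The receptor itself did not differ beyond the spread. Grin1 had 35.9, 24.1, 22.3 and 90.4 CPM in the C3H tumours, against 34.3, 20.8, 12.7, 79.7 and 34.04 CPM in the MK801-treated tumours, with C3H replicate 4 and MK801 replicate 4 far above the others in their groups. Its log2 fold change was 0.25, with a 95% interval of -1.48 to 1.98 (adjusted p = 0.894), so the data leave room for a difference in either direction. Grin2c ranged over 0.982 to 227 CPM in the C3H tumours and 3.54 to 51.4 CPM in the MK801-treated tumours (95% interval -1.09 to 4.93), with the top C3H value in replicate 1 alone. Grin2b and Grin2d stayed at or below 1.59 CPM in every one of the 9 libraries and did not pass, and Grin2a was below the expression filter, with 0 estimated counts in all 4 C3H libraries and at most 5 in an MK801-treated library.

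Of 32 tested genes of the NMDA receptor and its scaffold, 0 rose and 2 fell in C3H tumours, Dlgap1 and Homer2, and those 2 are 6.25% of the list, against 2.86% of all genes that were lower. Homer2, which binds Shank at the postsynaptic scaffold, had 1.77, 0.202, 0.327 and 1.16 CPM in the C3H tumours, against 8.69, 2.72, 2.74, 88.6 and 4.46 CPM in the MK801-treated tumours (log2 fold change -4.63 ± 1.15 (SE), adjusted p = 0.0263). The highest of these values was MK801 replicate 4, and without that library the Homer2 call was lost, as it was without C3H replicate 2, 3 or 4 (adjusted p up to 0.092). Without MK801 replicate 4 the log2 fold change was -2.34, so the size printed above rests on that library. Dlgap2, a paralog of Dlgap1, had 0.0253, 0.224, 0.351 and 1.08 CPM in the C3H tumours, against 4.61, 2.10, 1.16, 1.64 and 1.92 CPM in the MK801-treated tumours; its ranges did not overlap, but it did not pass (adjusted p = 0.106), although it did so in 3 of the alternatives. The 17 tested genes of other glutamate and GABA receptors had a median log2 fold change of -0.33. Of 12 glutamate transport genes 0 passed. The vesicular glutamate transporter gene Slc17a6 had 17.4, 1.19, 1.10 and 70.7 CPM in the C3H tumours, against 3.92, 0.774, 1.01, 0.175 and 1.59 CPM in the MK801-treated tumours (adjusted p = 0.0818), and its C3H libraries spread from the MK801 level to far above it. Slc17a7 and Slc17a8 had 95% intervals of -2.05 to 2.34 and -0.81 to 0.74. Fmr1, whose product FMRP binds neuronal mRNAs, and Hsf1, the heat shock factor, did not pass (adjusted p = 0.428 and 0.286).

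Interferon-stimulated genes formed the largest block of rises in C3H tumours. These genes are switched on when interferons bind their receptors, and most of their products restrict viruses. Of 40 tested, 33 were higher and 0 lower, against 3.07% of all genes higher, the median log2 fold change was 1.78 against 0.01 for all genes, and all 40 fold changes were above 0. For 34 of the 40 the C3H range lay wholly above the MK801 range, against 5.7% of all genes. Oasl1, a 2'-5'-oligoadenylate synthetase-like protein, had 32.4, 33.1, 30.1 and 21.6 CPM in the C3H tumours, against 11.9, 5.06, 4.80, 4.04 and 6.40 CPM in the MK801-treated tumours (log2 fold change 2.19 ± 0.31 (SE), adjusted p = 0.000794). Zbp1, a sensor of Z-form nucleic acid, had 36.3, 36.4, 21.6 and 22.6 CPM in the C3H tumours, against 4.90, 2.52, 0.982, 1.66 and 4.57 CPM in the MK801-treated tumours (log2 fold change 3.32 ± 0.51 (SE), adjusted p = 0.00136). Both were higher in 4 of 4 C3H libraries than in any MK801-treated library.

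Ifi44 rose as well, with 39.3, 117, 65.96 and 30.7 CPM in the C3H tumours, against 7.60, 4.42, 2.92, 2.60 and 12.7 CPM in the MK801-treated tumours (log2 fold change 3.38 ± 0.54 (SE), adjusted p = 0.00177), and C3H replicate 2 was the highest. Oas2, an antiviral oligoadenylate synthetase, showed the largest fold of the list and had 149, 123, 76.5 and 73.9 CPM in the C3H tumours, against 20.9, 3.27, 1.19, 1.59 and 13.7 CPM in the MK801-treated tumours (log2 fold change 3.70 ± 0.83 (SE), adjusted p = 0.015). MK801 replicates 1 and 5 held the highest Oas2, Zbp1 and Ifi44 values of the treated group, and both stayed below every C3H library. The 7 members that did not pass were Isg20, Irf1, Rsad2, Gbp2, Parp14, Cmpk2 and Lgals3bp, with log2 fold changes of 0.25 to 1.57. The list's mean level was 5.33 to 6.15 log2 CPM in C3H tumours, 2.98 to 4.46 in MK801-treated tumours and 4.005 to 5.36 in B6 controls. The B6 control mean lay between the groups for all 33 called members, nearer to C3H for 24 and nearer to MK801 for 9.

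Promoters of called members with the smallest p whose windows held the interferon-stimulated response element are shown because these genes moved together. The element was searched as a pair of GAAA with any 2 bases between them, on both strands, in windows of 250 bases before to 50 after each start from RefSeq (GRCm38.p6), and overlapping matches were counted. It was found in 15 of the 23 called members that had a window and in 17 of the 29 tested members that had one, called or not. Among all genes with a window 3.99% held it, as did 3.44% of all 32851 windows. The windows of Isg15, a ubiquitin-like modifier, at chr4:156200769-156201068 (- strand), and of Ifit3, an antiviral RNA-binding family member, at chr19:34583279-34583578 (+ strand), read 5′ to 3′ along the gene, with matches in capitals. These genes were chosen after their values were seen.
Isg15: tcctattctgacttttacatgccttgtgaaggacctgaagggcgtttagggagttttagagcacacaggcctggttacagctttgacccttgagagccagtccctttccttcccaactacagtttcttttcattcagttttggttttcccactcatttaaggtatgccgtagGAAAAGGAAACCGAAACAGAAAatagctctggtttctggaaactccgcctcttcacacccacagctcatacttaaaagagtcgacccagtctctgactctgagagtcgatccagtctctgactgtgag
Ifit3: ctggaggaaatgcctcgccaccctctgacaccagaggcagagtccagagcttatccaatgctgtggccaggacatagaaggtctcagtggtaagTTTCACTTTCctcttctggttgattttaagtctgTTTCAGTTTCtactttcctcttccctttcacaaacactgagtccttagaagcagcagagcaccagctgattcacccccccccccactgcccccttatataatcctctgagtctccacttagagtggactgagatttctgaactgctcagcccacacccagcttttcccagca
Isg15 holds 3 overlapping matches and Ifit3 holds 2. Isg15 had 48.8, 41.4, 25.7 and 25.4 CPM in the C3H tumours, against 8.94, 4.51, 2.66, 2.58 and 8.77 CPM in the MK801-treated tumours (log2 fold change 2.68 ± 0.45 (SE), adjusted p = 0.00254). Ifit3 had 139, 137, 99.98 and 64.2 CPM in the C3H tumours, against 17.3, 7.09, 3.69, 7.55 and 30.9 CPM in the MK801-treated tumours (log2 fold change 3.05 ± 0.54 (SE), adjusted p = 0.00372). In both genes every C3H library lay above every MK801-treated library. A match is a description of these letters and not evidence of binding.

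MHC class II molecules show peptides to CD4 T cells, and of 13 tested genes of that pathway 8 were higher in C3H tumours, 0 were lower and 5 did not pass, against 3.07% of all genes higher. The median log2 fold change was 1.59. With the leukocyte covariate 1 of the 13 passed, against 71 of all 16084 genes higher, at a median of 0.76. Ciita, the master activator of class II genes, had 1.95, 3.90, 2.08 and 3.33 CPM in the C3H tumours, against 0.779, 0.442, 0.181, 0.458 and 0.217 CPM in the MK801-treated tumours (log2 fold change 2.75 ± 0.52 (SE), adjusted p = 0.00523). Cd74, the invariant chain, had 125, 166, 160.1 and 129 CPM in the C3H tumours, against 77.9, 35.2, 13.98, 20.1 and 22.98 CPM in the MK801-treated tumours (log2 fold change 2.09 ± 0.41 (SE), adjusted p = 0.00707). H2-DMb2, a chain of the peptide-loading molecule, had 3.22, 3.84, 3.34 and 3.79 CPM in the C3H tumours, against 0.287, 0.111, 0.362, 0.393 and 0.343 CPM in the MK801-treated tumours (log2 fold change 3.56 ± 0.40 (SE), adjusted p = 7.36e-05), and H2-Ob, part of its inhibitor, had 0.861, 1.48, 0.865 and 0.929 CPM in the C3H tumours, against 0.410, 0.221, 0.207, 0.306 and 0.398 CPM in the MK801-treated tumours (log2 fold change 1.73 ± 0.34 (SE), adjusted p = 0.00758). The C3H and MK801 ranges of these 4 genes did not overlap. B6 controls held 87.7 to 211 CPM (median 163) of Cd74 and 0.715 to 1.59 CPM (median 1.04) of H2-Ob, level with C3H tumours, whereas H2-DMb2 in B6 controls, at 0.273 to 0.892 CPM (median 0.641), stayed nearer to the MK801-treated tumours. With 1 library left out in turn, 4 to 8 of the 13 passed, and 4 did so without C3H replicate 2 or 3 or without MK801 replicate 2, 3 or 4.

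MHC class I presentation, which shows peptides to CD8 T cells, had 7 of 19 tested genes higher, 0 lower and 12 not past the test, against 3.07% of all genes higher. The median log2 fold change was 1.13. With the leukocyte covariate 0 of the 19 passed, against 71 of all 16084 genes higher, at a median of 0.92. B2m, the shared light chain, had 1082, 1379.8, 1067 and 816 CPM in the C3H tumours, against 631, 259.5, 212, 144 and 365 CPM in the MK801-treated tumours (log2 fold change 1.75 ± 0.40 (SE), adjusted p = 0.0174), and MK801 replicate 1 stood above the other treated libraries. Psmb9, a subunit of the immunoproteasome, had 59.3, 46.4, 36.8 and 31.4 CPM in the C3H tumours, against 21.4, 9.48, 14.1, 4.87 and 18.4 CPM in the MK801-treated tumours (log2 fold change 1.67 ± 0.39 (SE), adjusted p = 0.019). H2-T23 and H2-T22, nonclassical class I genes, had log2 fold changes of 1.69 and 1.87. Class I heavy chain genes have near-identical copies and differ in sequence between strains, so how their reads were shared out is uncertain. H2-K1 and H2-D1, the classical heavy chains, did not pass (adjusted p = 0.0834 and 0.794). B2m lost its call without C3H replicate 2 or MK801 replicate 3 (adjusted p up to 0.056), and Psmb9 without C3H replicate 1 or 2 or MK801 replicate 2 (up to 0.0529). The class I count was 2 without C3H replicate 2, and 3 without C3H replicate 1 or MK801 replicate 2 or 3.

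**Figure D3:**
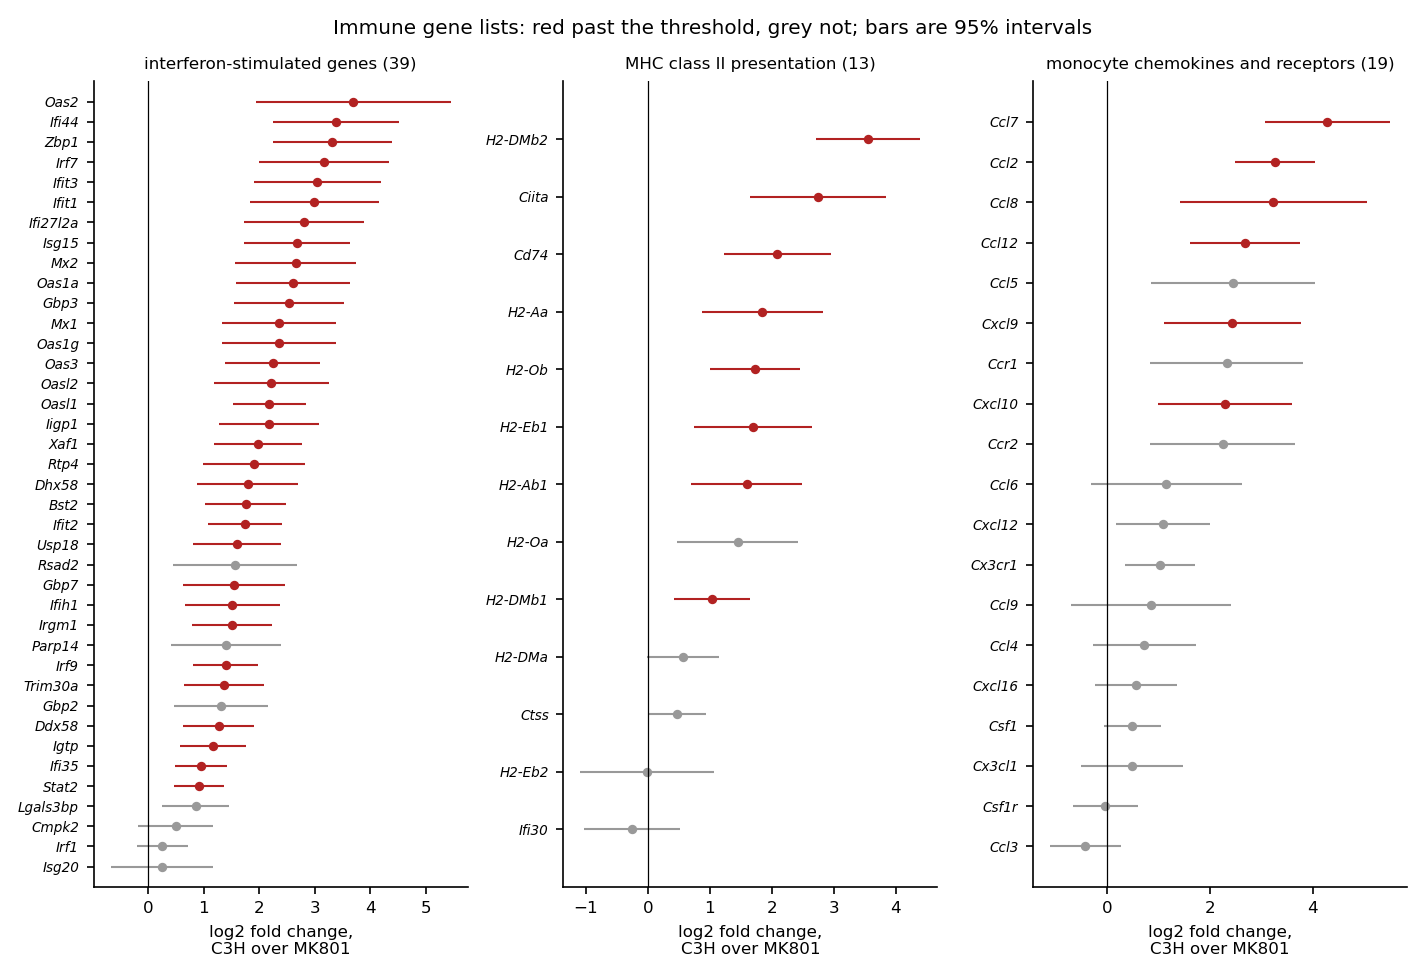
Each point is the log2 fold change of C3H over MK801-treated B6 tumours for 1 gene and each bar its 95% interval, in 3 lists with the number of members drawn in the panel title. Of those drawn, 32 of 39 interferon-stimulated genes, 8 of 13 MHC class II genes and 6 of 19 monocyte chemokines and receptors passed the test (red), all of them above 0.

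Chemokines draw monocytes and T cells into tissue. Of 20 tested chemokine and receptor genes 6 were higher and 0 lower, against 3.07% of all genes higher, with a median log2 fold change of 1.11. With the leukocyte covariate 2 of the 20 passed, against 71 of all 16084 genes higher, at a median of 0.54. Ccl2, which recruits monocytes through Ccr2, had 6.03, 11.1, 6.13 and 5.75 CPM in the C3H tumours, against 0.656, 0.707, 1.03, 0.633 and 0.723 CPM in the MK801-treated tumours (log2 fold change 3.27 ± 0.37 (SE), adjusted p = 7.36e-05). Ccl7, another Ccr2 ligand, had 2.23, 4.13, 2.31 and 3.95 CPM in the C3H tumours, against 0.0820, 0.221, 0.155, 0.196 and 0.145 CPM in the MK801-treated tumours (log2 fold change 4.28 ± 0.57 (SE), adjusted p = 0.000425). Ccl12 had 2.51, 2.56, 2.13 and 2.57 CPM in the C3H tumours, against 0.348, 0.287, 0.155, 0.284 and 0.813 CPM in the MK801-treated tumours (log2 fold change 2.67 ± 0.50 (SE), adjusted p = 0.00543). None of the C3H values of these genes reached down to an MK801 value. Ccl8, Cxcl9 and Cxcl10, the last 2 of them interferon-induced ligands for T cells, passed with log2 fold changes of 3.23, 2.44 and 2.29. The receptors Ccr1 and Ccr2 did not pass (adjusted p = 0.0644 and 0.0593). B6 controls held 2.12 to 6.02 CPM (median 2.86) of Ccl2 and 0.627 to 5.05 CPM (median 1.80) of Ccl7, and the MK801-treated tumours lay below all of them in both. Cxcl9 lost its call without C3H replicate 2 or 3 or MK801 replicate 2 or 3 (adjusted p up to 0.0969). Without C3H replicate 2 or MK801 replicate 3 the count of called members was 3.

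The marker lists of leukocytes and stroma had median log2 fold changes above 0, between 0.35 for macrophages and 1.00 for B and plasma cells, and few of their members passed. Members higher were 10.5% of macrophage, 11.1% of T and NK, 10% of B and plasma and 28.6% of neutrophil markers. The share of all genes higher was 3.07%. Of 19 macrophage markers 2 were higher and 0 lower, C1qa and Fcgr1, and their summed level was 1218 to 1572 CPM in C3H tumours, 945 to 1392 CPM in MK801-treated tumours and 1417 to 2473 CPM in B6 controls. C1qa, a complement subunit made by macrophages, had 219.7, 255, 202 and 222 CPM in the C3H tumours, against 127, 112, 118, 84.3 and 172 CPM in the MK801-treated tumours (log2 fold change 0.87 ± 0.19 (SE), adjusted p = 0.0121). Of the 19 fold changes 14 were above 0, and they ran from -0.09 to 1.31 on the log2 scale. Csf1r, Emr1 and Lyz2, picked from this list after their values were seen, lay near its lower end. Their log2 fold changes were -0.04, -0.02 and 0.05, none past the test. Of 18 T and NK cell markers 2 were higher, Gzmb and Ncr1, and their summed level was 24.8 to 37.8 CPM in C3H tumours, 13.4 to 44.2 CPM in MK801-treated tumours and 20.7 to 58.7 CPM in B6 controls. Ncr1, an NK cell receptor, had 0.709, 0.628, 0.468 and 0.503 CPM in the C3H tumours, against 0.0205, 0, 0.0517, 0 and 0.145 CPM in the MK801-treated tumours (adjusted p = 0.0231); it was at 0 in MK801 replicates 2 and 4. Cd3e, a T cell receptor chain, had 0.785, 0.606, 0.327 and 0.445 CPM in the C3H tumours, against 0.0820, 0.0221, 0.0258, 0.0437 and 0.434 CPM in the MK801-treated tumours (adjusted p = 0.101), with its top treated value in replicate 5. Cd3e passed with the replicate number as a block (log2 fold change 3.20, adjusted p = 0.0147) and without MK801 replicate 5 (3.53, adjusted p = 0.00288). Fcgr1, Ncr1 and Gzmb lost their calls when single libraries were left out, 6, 4 and 7 of the 9 libraries in turn (adjusted p up to 0.106, 0.0579 and 0.0724). Igj, the joining chain of secreted antibodies, was the member of 10 B and plasma cell markers that passed and had 7.68, 10.1, 9.28 and 8.57 CPM in the C3H tumours, against 1.27, 0.354, 0.904, 0.655 and 1.27 CPM in the MK801-treated tumours (log2 fold change 3.32 ± 0.39 (SE), adjusted p = 0.000128). S100a9 and Csf3r were the 2 of 7 neutrophil markers that passed, with log2 fold changes of 2.78 and 0.89.

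Among 20 fibroblast and mural markers 2 were higher, or 10% against 3.07% of all genes, with a summed level of 910.2 to 1862 CPM in C3H tumours, 814 to 1129 CPM in MK801-treated tumours and 1175 to 2424 CPM in B6 controls. These were Col1a2, a chain of collagen I, with 157, 207, 121 and 323 CPM in the C3H tumours, against 68.5, 57.4, 57.5, 98.8 and 19.3 CPM in the MK801-treated tumours (log2 fold change 1.74 ± 0.40 (SE), adjusted p = 0.0172), and Col6a1, a chain of collagen VI, with a log2 fold change of 1.11. Of 18 endothelial markers Cldn5, a tight junction protein (log2 fold change 1.62 ± 0.38 (SE), adjusted p = 0.0207), and Egfl7 (log2 fold change 0.67 ± 0.19 (SE), adjusted p = 0.0469) were higher, or 11.1% of that list. Calls were also lost when single libraries were left out: Col1a2 without C3H replicate 4, Col6a1 and Egfl7 without 7 libraries each in turn and Cldn5 without C3H replicate 1 or 2 or MK801 replicate 1 or 2 (adjusted p up to 0.0603, 0.166, 0.184 and 0.0623). With the replicate number as a block, Col1a2, Col6a1 and Egfl7 lost their calls (adjusted p = 0.0517, 0.0771 and 0.0594). With the leukocyte score as a covariate, 3 of 40 interferon-stimulated genes passed, at a median log2 fold change of 1.23. In that fit 71 of all 16084 genes were higher.

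**Figure D4:**
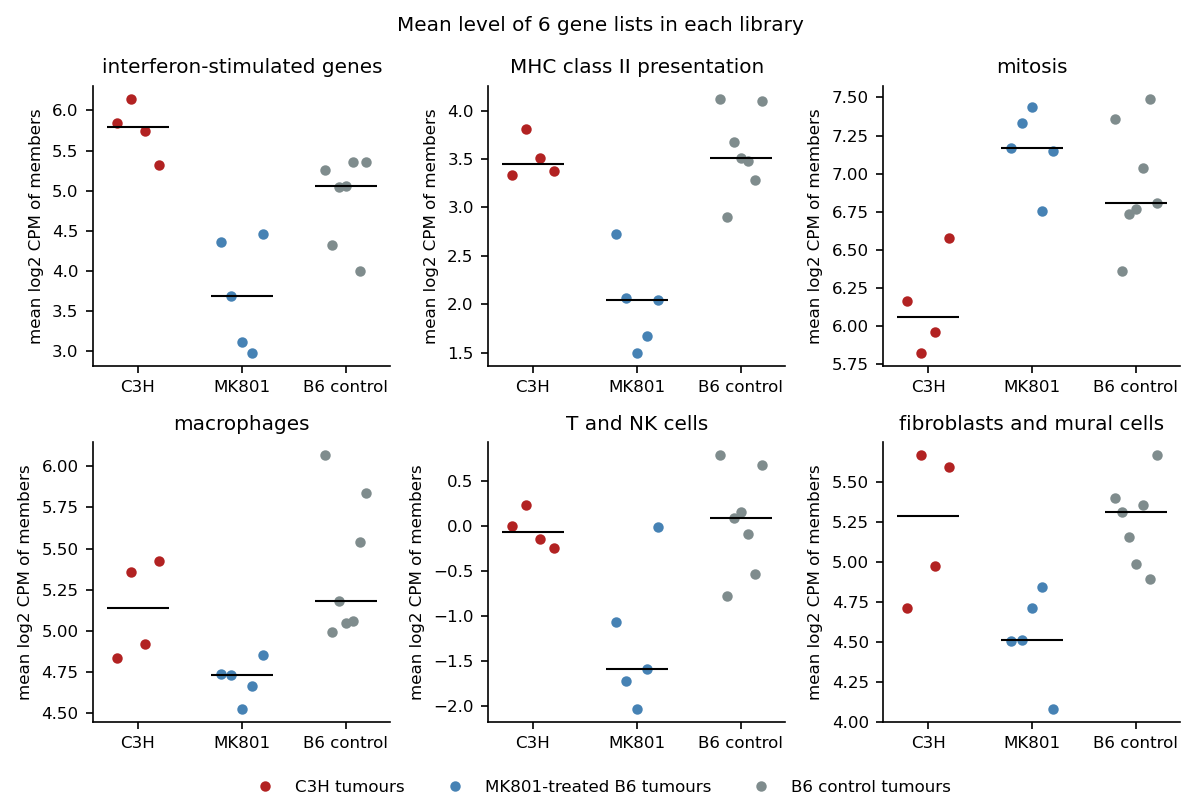
Each point is 1 library, as the mean log2 CPM of the members of a gene list, and each black line is a group median, for C3H tumours, MK801-treated B6 tumours and B6 controls. The interferon and MHC class II levels of the 4 C3H tumours lie above all 5 MK801-treated tumours and their mitosis levels lie below, while T and NK cell levels overlap.

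Mitosis genes formed the largest block of falls. They drive chromosome condensation, spindle assembly and cell division, and their levels rise in dividing cells. Of 29 tested, 20 were lower in C3H tumours and 0 higher, against 2.86% of all genes lower, with a median log2 fold change of -1.10, and all 29 fold changes were below 0. For 20 the C3H range lay wholly below the MK801 range, against 6.37% of all genes. Kif20a, a kinesin of cytokinesis, had 72.9, 65.2, 71.03 and 93.6 CPM in the C3H tumours, against 191, 203, 195, 128 and 165 CPM in the MK801-treated tumours (log2 fold change -1.22 ± 0.22 (SE), adjusted p = 0.00395). Cenpa, the centromeric histone, had 41.5, 24.6, 26.96 and 38.5 CPM in the C3H tumours, against 76.6, 81.3, 99.97, 66.1 and 80.6 CPM in the MK801-treated tumours (log2 fold change -1.30 ± 0.24 (SE), adjusted p = 0.00414). Every C3H library held less of both than any MK801-treated library.

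Cdk1, the kinase that starts mitosis, had 125, 75.3, 86.04 and 129 CPM in the C3H tumours, against 225, 213, 331, 223 and 219 CPM in the MK801-treated tumours (log2 fold change -1.22 ± 0.24 (SE), adjusted p = 0.00736), and its partner cyclin gene Ccnb1 had 57.4, 47.4, 69.9 and 90.1 CPM in the C3H tumours, against 174, 226, 383, 159 and 169 CPM in the MK801-treated tumours (log2 fold change -1.75 ± 0.35 (SE), adjusted p = 0.00775). MK801 replicate 3 was the highest in both. Mki67, the gene of the proliferation marker Ki-67, had 522, 562, 503 and 769 CPM in the C3H tumours, against 1459.9, 1593, 1656, 795 and 1339 CPM in the MK801-treated tumours (log2 fold change -1.22 ± 0.26 (SE), adjusted p = 0.0128). The 9 members that did not pass were Kif23, Bub1, Bub3, Ccnb2, Top2a, Nusap1, Nuf2, Ttk and Prc1. The B6 control mean was nearer to MK801 for all 20 called members and lay between the groups for each. The mean level of the list was 5.82 to 6.58 log2 CPM in C3H tumours, 6.76 to 7.44 in MK801-treated tumours and 6.36 to 7.49 in B6 controls.

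Of 27 tested DNA replication genes 2 were lower and 0 higher, against 2.86% of all genes lower, with a median log2 fold change of -0.47. Brca2, of homologous recombination repair, had 29.7, 51.5, 41.9 and 37.6 CPM in the C3H tumours, against 92.3, 161, 141, 66.8 and 112 CPM in the MK801-treated tumours (log2 fold change -1.52 ± 0.26 (SE), adjusted p = 0.00304). Orc6, of the origin recognition complex, had 70.8, 45.8, 65.2 and 59.3 CPM in the C3H tumours, against 141, 146, 185, 69.9 and 147 CPM in the MK801-treated tumours (log2 fold change -1.19 ± 0.30 (SE), adjusted p = 0.0255), and its call was lost when any of 6 single libraries was left out (adjusted p up to 0.106). None of the Mcm helicase genes passed. The number of mitosis genes called was 7 without C3H replicate 2, 13 without C3H replicate 1 and 5 with a covariate for the base composition trend of the libraries together with the replicate block. That trend, the rank correlation across genes between a library's deviations and transcript GC content, was -0.21 to 0.46 in C3H tumours and -0.29 to 0.17 in MK801-treated tumours. With the leukocyte covariate 3 mitosis genes passed, against 129 of all 16084 genes lower, and the mitosis median stayed at -1.17.

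**Figure D5:**
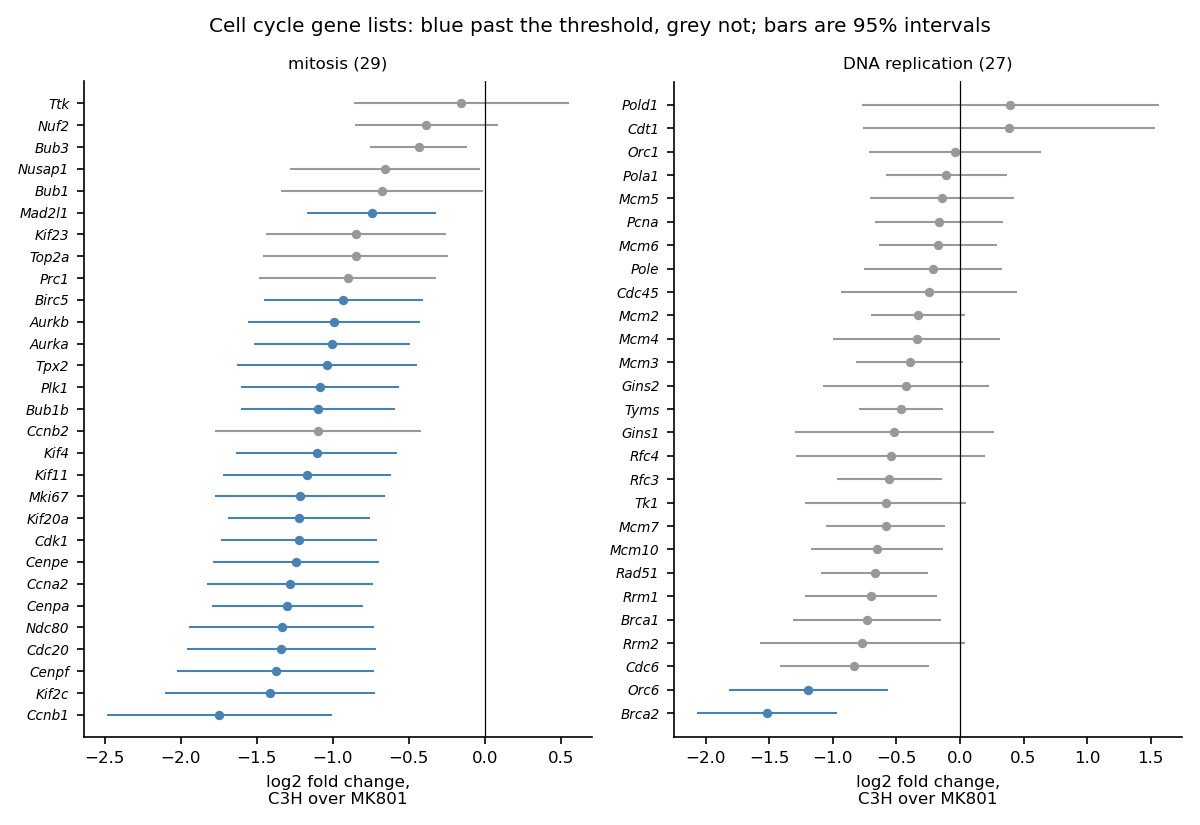
Each point is the log2 fold change of C3H over MK801-treated B6 tumours for 1 gene and each bar its 95% interval, for mitosis (29 tested) and DNA replication (27 tested). Blue marks the 20 mitosis and 2 DNA replication genes that passed the test, all below 0.

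Promoters of Cenpa and Cdk1, the called mitosis members of smallest p that held a match, are shown for the cell cycle homology region, a motif common in genes of late cell cycle, searched as TTTGAA on both strands. It was present in 12 of 16 called members with a window and in 18 of the 25 tested members with one, called or not. It was also present in 20.2% of all genes with a window and in 17.9% of all windows. Cenpa lies at chr5:30666636-30666935 (+ strand) and Cdk1 at chr10:69352863-69353162 (- strand) in GRCm38.p6, and capitals mark the matches.
Cenpa: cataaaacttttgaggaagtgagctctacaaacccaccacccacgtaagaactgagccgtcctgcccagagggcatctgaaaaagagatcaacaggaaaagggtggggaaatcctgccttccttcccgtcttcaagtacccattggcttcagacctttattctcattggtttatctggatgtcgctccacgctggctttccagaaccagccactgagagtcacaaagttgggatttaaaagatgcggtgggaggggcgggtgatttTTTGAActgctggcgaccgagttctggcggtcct
Cdk1: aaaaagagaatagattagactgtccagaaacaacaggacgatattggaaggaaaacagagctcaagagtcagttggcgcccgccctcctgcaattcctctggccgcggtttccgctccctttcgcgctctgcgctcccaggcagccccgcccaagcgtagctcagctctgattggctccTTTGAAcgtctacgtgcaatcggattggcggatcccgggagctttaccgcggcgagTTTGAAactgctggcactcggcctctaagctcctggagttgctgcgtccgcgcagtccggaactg
The Cenpa window holds 1 match and the Cdk1 window 2. With letters this short a match is frequent by itself and says nothing of what binds there.

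Of 22 tested genes of cytokine receptor feedback 2 were higher and 0 lower, against 3.07% of all genes higher. Cish, which is induced by STAT5 and dampens growth hormone, prolactin and interleukin signalling, had 24.01, 44.2, 48.7 and 61.4 CPM in the C3H tumours, against 2.17, 1.503, 2.01, 1.51 and 2.08 CPM in the MK801-treated tumours. Every C3H library lay far above every treated one (log2 fold change 4.58 ± 0.41 (SE), adjusted p = 7.49e-06), and B6 controls held 2.27 to 11.1 CPM (median 7.01), between the groups. Socs2, a relative of Cish that also restrains growth hormone signalling, had 153, 45.9, 62.1 and 51.4 CPM in the C3H tumours, against 14.5, 13.8, 7.52, 11.1 and 23.5 CPM in the MK801-treated tumours (log2 fold change 2.47 ± 0.37 (SE), adjusted p = 0.00129). C3H replicate 1 was the lowest for Cish and the highest for Socs2. Prlr, the prolactin receptor, had 7.02, 27.9, 134 and 51.5 CPM in the C3H tumours, against 24.04, 26.2, 8.03, 12.8 and 16.8 CPM in the MK801-treated tumours (adjusted p = 0.205), with C3H replicate 1 below every treated library.

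The Cish promoter is shown with matches to the STAT site TTCNNNGAA in capitals. The motif was searched on both strands and occurred in 9.55% of all genes with a window and in 8.30% of all windows, and the Cish window at chr9:107296409-107296708 (+ strand) of GRCm38.p6 holds 2 matches at and just after the annotated start.
Cish: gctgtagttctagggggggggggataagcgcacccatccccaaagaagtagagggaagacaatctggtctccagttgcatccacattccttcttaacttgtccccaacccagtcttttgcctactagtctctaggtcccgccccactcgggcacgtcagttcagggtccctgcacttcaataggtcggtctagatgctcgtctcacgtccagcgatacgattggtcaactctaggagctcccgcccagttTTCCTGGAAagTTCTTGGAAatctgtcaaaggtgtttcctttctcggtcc
Of 18 tested feedback genes with a window 4 held the motif.

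Fam107a, Mdm1 and 1700024P16Rik, grouped here after their values were seen, had their highest medians in the MK801-treated tumours. Fam107a, a stress- and glucocorticoid-induced actin regulator, had 5.45, 18.6, 4.91 and 14.6 CPM in the C3H tumours, against 52.4, 49.1, 211, 164 and 28.2 CPM in the MK801-treated tumours (log2 fold change -3.21 ± 0.61 (SE), adjusted p = 0.00576). MK801 replicates 3 and 4 were the highest, while B6 controls held only 0.432 to 1.22 CPM (median 0.941), so the C3H tumours lay above the controls and below the treated tumours. Mdm1, which encodes a microtubule-binding protein, had 152, 165, 132 and 105 CPM in the C3H tumours, against 549, 649, 549, 491 and 276 CPM in the MK801-treated tumours (log2 fold change -1.86 ± 0.21 (SE), adjusted p = 9.49e-05), and B6 controls held 155 to 213 CPM (median 201). The uncharacterised gene 1700024P16Rik had 0.304, 0.381, 0.585 and 0.329 CPM in the C3H tumours, against 15.1, 19.9, 24.1, 36.6 and 0.868 CPM in the MK801-treated tumours (log2 fold change -5.59 ± 0.91 (SE), adjusted p = 0.00218), and MK801 replicate 5 was far below the other treated libraries. B6 controls held 0.589 to 4.56 CPM (median 1.12) of it, so 1 treated library lay within their range. With the leukocyte covariate Mdm1 kept its call, and Fam107a and 1700024P16Rik did not, at log2 fold changes of -2.52 and -3.62.

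Glucocorticoid response genes, which steroid stress hormones induce through the glucocorticoid receptor, had 3 of 20 members lower in C3H tumours and 0 higher, against 2.86% of all genes lower. Fkbp5, a co-chaperone of the glucocorticoid receptor, had 152, 194, 189 and 149.5 CPM in the C3H tumours, against 374, 342, 392, 448 and 208 CPM in the MK801-treated tumours (log2 fold change -1.04 ± 0.23 (SE), adjusted p = 0.0145), against 73.96 to 158 CPM (median 143) in B6 controls. Gpd1, glycerol-3-phosphate dehydrogenase, had 12.9, 8.59, 16.95 and 13.8 CPM in the C3H tumours, against 38.1, 36.4, 41.6, 83.9 and 33.9 CPM in the MK801-treated tumours (log2 fold change -1.84 ± 0.34 (SE), adjusted p = 0.00433), with MK801 replicate 4 the highest. Cdkn1a, the cell cycle inhibitor p21, had 33.3, 35.01, 28.3 and 47.6 CPM in the C3H tumours, against 86.4, 74.9, 77.2, 97.2 and 94.6 CPM in the MK801-treated tumours (log2 fold change -1.25 ± 0.21 (SE), adjusted p = 0.00254). The C3H and MK801 ranges of these 3 genes did not overlap, and Fkbp5 lost its call without C3H replicate 4 or MK801 replicate 4 (adjusted p up to 0.0514). With the leukocyte covariate Cdkn1a kept its call, and Fkbp5 and Gpd1 did not, at log2 fold changes of -0.48 and -1.21. The median of the list was -0.26. Of 20 immediate early genes 1 was lower, or 5% against 2.86% of all genes. This was Nr4a2, an orphan nuclear receptor, with 2.33, 1.57, 1.54 and 2.38 CPM in the C3H tumours, against 5.74, 12.8, 6.15, 6.70 and 4.39 CPM in the MK801-treated tumours (log2 fold change -1.87 ± 0.50 (SE), adjusted p = 0.0364). Its call was lost when any of 8 of the 9 single libraries was left out. Fos and Nr4a1 did not pass (adjusted p = 0.25 and 0.23). Among 19 clock genes 1 was higher, or 5.26% against 3.07% of all genes. This was Dbp, with 93.6, 27.8, 31.03 and 44.2 CPM in the C3H tumours, against 11.7, 10.7, 13.98, 11.1 and 27.6 CPM in the MK801-treated tumours (log2 fold change 1.71 ± 0.46 (SE), adjusted p = 0.0391).

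Beyond these lists, the largest rises in C3H tumours included hormone and receptor genes. Pyy, peptide YY of gut and islet endocrine cells, had 1302, 84.5, 317 and 84.3 CPM in the C3H tumours, against 2.83, 6.96, 0.284, 0.240 and 3.81 CPM in the MK801-treated tumours (log2 fold change 7.30 ± 1.17 (SE), adjusted p = 0.00199), and C3H replicate 1 was by far the highest. It was the 1 of 11 tested genes of other islet hormones that passed, or 9.09% against 3.07% of all genes higher. Casr, the calcium-sensing receptor, had 28.4, 121, 115 and 90.04 CPM in the C3H tumours, against 13.4, 5.33, 6.17, 4.26 and 3.02 CPM in the MK801-treated tumours (log2 fold change 3.78 ± 0.73 (SE), adjusted p = 0.00638), with C3H replicate 1 the lowest of its group. Gpr81, the lactate receptor, had 9.93, 60.3, 4.21 and 32.4 CPM in the C3H tumours, against 0.533, 0.221, 0.646, 0.851 and 0.813 CPM in the MK801-treated tumours (log2 fold change 5.44 ± 1.34 (SE), adjusted p = 0.025), but B6 controls spread over 0.197 to 45.8 CPM (median 3.07), and the call was lost without any of 5 single libraries. Dclk3, a doublecortin-like kinase, ranged over 3.51 to 12.8 CPM in the C3H tumours and 0.153 to 1.46 CPM in the MK801-treated tumours (log2 fold change 3.62 ± 0.84 (SE), adjusted p = 0.0186) and lost its call without C3H replicate 2 or MK801 replicate 2 (adjusted p up to 0.0538). With the leukocyte covariate Pyy and Cish kept their calls, and Casr, Gpr81 and Dclk3 did not, at log2 fold changes of 3.04, 3.73 and 2.19.

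Several of the largest rises were in genes of the MHC region or in predicted genes. Gm8909, a class I-like gene, had 20.8, 27.8, 22.8 and 21.5 CPM in the C3H tumours, against 1.05, 0.619, 0.723, 0.175 and 0.163 CPM in the MK801-treated tumours (log2 fold change 5.41 ± 0.58 (SE), adjusted p = 4.81e-05), and B6 controls at 0.0986 to 0.564 CPM (median 0.340) were as low as the treated tumours. Gm8615 had 54.5, 85.7, 93.3 and 58.9 CPM in the C3H tumours, against 0.164, 0.332, 0.181, 0.262 and 0.217 CPM in the MK801-treated tumours (log2 fold change 8.29 ± 0.57 (SE), adjusted p = 7.01e-07), Gm10653 ranged over 14.4 to 28.9 CPM in the C3H tumours and 1.39 to 1.99 CPM in the MK801-treated tumours and C530028O21Rik over 14.96 to 102 CPM in the C3H tumours and 0.129 to 2.71 CPM in the MK801-treated tumours. Apol9a and Apol9b, near-identical apolipoprotein L genes whose reads may have been split between them, had log2 fold changes of 4.79 and 4.14. The reference genome derives from B6, and the part that mapping of C3H reads plays in such differences was not tested.

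The 12 largest falls chosen by the naming rule included Dlgap1, Homer2 and 1700024P16Rik, and the other 9 follow. Slc15a2, a peptide transporter, had 0.203, 0.0898, 0.210 and 0.542 CPM in the C3H tumours, against 18.1, 26.6, 18.4, 24.9 and 4.46 CPM in the MK801-treated tumours (log2 fold change -6.11 ± 1.47 (SE), adjusted p = 0.0221), and B6 controls spread over 0.739 to 67.6 CPM (median 3.99). Its call was lost without C3H replicate 1, 2 or 3 (adjusted p up to 0.0824). Dynlt1a, a dynein light chain with near-identical copies nearby, had 5.85, 2.13, 3.04 and 4.33 CPM in the C3H tumours, against 94.8, 90.4, 129, 84.95 and 108 CPM in the MK801-treated tumours (log2 fold change -4.72 ± 0.37 (SE), adjusted p = 2.42e-06). Folr1, folate receptor alpha, had 0.963, 0.830, 2.17 and 1.28 CPM in the C3H tumours, against 45.9, 25.7, 22.4, 21.6 and 27.04 CPM in the MK801-treated tumours (log2 fold change -4.44 ± 0.57 (SE), adjusted p = 0.000282). As the naming rule required no overlap, the C3H and MK801 ranges of all 12 genes were apart by selection.

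Myo7a, an unconventional myosin, had 2.001, 3.01, 2.10 and 2.999 CPM in the C3H tumours, against 18.8, 21.4, 27.8, 40.1 and 17.9 CPM in the MK801-treated tumours (log2 fold change -3.32 ± 0.30 (SE), adjusted p = 8.04e-06). Clgn, a chaperone of the endoplasmic reticulum, ranged over 1.08 to 9.75 CPM in the C3H tumours and 28.8 to 112 CPM in the MK801-treated tumours, and Rab6b, a small GTPase of Golgi transport, over 0.421 to 0.832 CPM in the C3H tumours and 5.19 to 14.9 CPM in the MK801-treated tumours. In B6 controls Myo7a held 14.3 to 28.8 CPM (median 20.97) and Clgn 53.1 to 79.3 CPM (median 65.9), at the level of the treated tumours. C8b, a complement component (log2 fold change -4.12 ± 0.87 (SE), adjusted p = 0.0113), and Col6a6, a collagen VI chain (log2 fold change -4.06 ± 1.07 (SE), adjusted p = 0.0358), lost their calls with the replicate number as a block, at adjusted p = 0.0568 and 0.0802. Col6a6 lost it also when any of 7 single libraries was left out (adjusted p up to 0.108). The unnamed gene 1110017F19Rik ranged over 0.426 to 1.70 CPM in the C3H tumours and 3.23 to 23.9 CPM in the MK801-treated tumours.

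Of 23 beta cell genes 0 passed, with a median log2 fold change of 0.38, and Ins1 and Ins2 had 95% intervals of 0.26 to 2.42 and -0.16 to 1.52. Ins2 ranged over 32072 to 65259 CPM in the C3H tumours and 15762 to 36923 CPM in the MK801-treated tumours. Iapp, Chga and Eef1a1, the other abundant transcripts, did not pass either (adjusted p = 0.848, 0.253 and 0.356). Of 23 granule and exocytosis genes 1 was higher, or 4.35% against 3.07% of all genes. This was Scg5, a chaperone of prohormone convertase 2, with 1387, 808, 863 and 754 CPM in the C3H tumours, against 489, 522, 493, 478 and 721 CPM in the MK801-treated tumours (log2 fold change 0.82 ± 0.23 (SE), adjusted p = 0.0436). At a number of libraries this small, absence of a call does not show equal levels.

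Proteases and inhibitors linked to invasion had 2 of 30 tested genes higher and 0 lower, or 6.67% against 3.07% of all genes, with a median log2 fold change of 0.49. Cst3, cystatin C, an inhibitor of cathepsins, had 1124, 605, 760.1 and 677 CPM in the C3H tumours, against 365, 443, 476, 291 and 407 CPM in the MK801-treated tumours (log2 fold change 1.00 ± 0.21 (SE), adjusted p = 0.0116). St14, the membrane protease matriptase, had 101, 14.3, 13.1 and 10.4 CPM in the C3H tumours, against 4.65, 5.77, 1.27, 1.42 and 2.40 CPM in the MK801-treated tumours (log2 fold change 3.48 ± 0.74 (SE), adjusted p = 0.0113), with C3H replicate 1 far above the rest, and lost its call without that library (log2 fold change 2.02, adjusted p = 0.0528). Mmp14, a membrane-type matrix metalloproteinase, had 22.98, 39.2, 22.2 and 35.8 CPM in the C3H tumours, against 14.2, 14.6, 19.6, 16.8 and 9.89 CPM in the MK801-treated tumours; its ranges did not overlap and it fell just short of the threshold (adjusted p = 0.0543). Plau, urokinase, had an adjusted p of 0.0585 and passed in 5 of the alternatives.

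Metabolic and stress lists held 0 to 2 calls each. Members higher were 4.17% of oxidative phosphorylation and 5% of heat shock genes, against 3.07% of all genes. Members lower were 4.17% and 5% of these lists and 4.76% of hypoxia and glycolysis genes, against 2.86% of all genes. Of 24 oxidative phosphorylation genes Sdhc, of complex II, was lower, with 69.4, 58.3, 63.9 and 63.4 CPM in the C3H tumours, against 89.7, 86.2, 112, 93.97 and 96.2 CPM in the MK801-treated tumours (log2 fold change -0.59 ± 0.13 (SE), adjusted p = 0.0119), and Uqcrc1, of complex III, was higher, with 138, 106, 133 and 118 CPM in the C3H tumours, against 105, 83.97, 72.5, 73.5 and 66.9 CPM in the MK801-treated tumours (log2 fold change 0.62 ± 0.15 (SE), adjusted p = 0.0248). Of 21 hypoxia and glycolysis genes Egln3, a prolyl hydroxylase of the oxygen sensor, was lower, with 0.988, 5.54, 2.41 and 2.07 CPM in the C3H tumours, against 8.59, 9.19, 10.7, 14.2 and 13.1 CPM in the MK801-treated tumours (log2 fold change -2.02 ± 0.48 (SE), adjusted p = 0.0197). Of 20 heat shock genes Hsf2 was lower and Serpinh1, a collagen chaperone, was higher, with log2 fold changes of -0.62 and 1.01. Of 20 unfolded protein response genes 0 passed.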

How the data were processed

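PolyA RNA of RIP1Tag2 tumours was sequenced from TruSeq libraries, per the labels' protocols. Build mm9, RSEM 1.2.12 and Bowtie 1.0.1 appear in the submitters' processing notes without their roles. Not given in the sources used here are annotation, filters and strand setting. For 23224 genes the authors deposited estimated counts, not normalized. A second deposited table holds a normalized signal for 22484 genes, which the values show to be the same counts divided by 1 factor per library.

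The estimated counts, rounded to whole numbers, entered edgeR 4.0.16 (R 4.3.3). The filter filterByExpr left 16084 genes, TMM scaled the libraries, and 1 quasi-likelihood fit held all 3 groups (4 C3H, 5 MK801, 7 B6 control libraries). The contrast was C3H minus MK801, with Benjamini-Hochberg adjustment over all tested genes and a threshold of 0.05. The standard error is the log2 fold change divided by the root of F. CPM are per 1e+06 counts of the scaled library, and list levels are mean log2 CPM with a prior count of 2. All 25 rows whose symbols had turned into dates stayed in the tests where they passed the filter. Steps were checked on simulated counts. Totals per library were 38561300 to 57013800 estimated counts, so low genes carry the wide errors.

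Members, gene lists and the genes named were chosen with earlier results of these data known. The names follow a rule: receptor, transporter, strain and sex genes and the 5 most abundant, at any p; the 12 strongest rises and 12 strongest falls with no overlap and a mean log2 CPM of at least 1; the 5 genes on each side of Dlgap1; and up to 4 list members of smallest p. Other named genes were chosen after their values were seen. Described lists number 31. A few list members count in their lists but are not reported here by name.

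No 2 libraries of a group agreed within sampling noise (the lowest chi-square per degree of freedom was 117.1), so none was merged and each counted as 1 sample. This check cannot tell separate mice from separate tumours of 1 mouse. C3H and MK801 libraries of the same number deviated together from their group means, with correlations of 0.26, 0.14, 0.33 and 0.37. The labels do not say what the numbers mark. They entered only alternative fits, as a block, and the main fit held group alone. Unlike numbers gave -0.35 to 0.38, and C3H replicates 2 and 3 each correlated best with the other's number, so these correlations do not decide whether the numbers pair samples. Alternatives used DESeq2 1.42.0, limma 3.58.1, other filters and scalings, the replicate block, covariates for GC trend, acinar and leukocyte markers, and each library left out. GC content came from GENCODE transcripts of GRCm38 for 98.4% of tested genes. Promoters came from RefSeq, GRCm38.p6.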

Additional observations from a re-analysis of the deposited data

Results flagged for a closer look

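In 240 groups of 4 or 5 libraries, 1 for each named gene and group, 20 held a library whose gap to its nearest neighbour took up more of the group's range than Dixon's 95% value allows. Chance alone flags about 1 in 20 groups. C3H replicate 1 was set apart by Fmr1 at 95.3 CPM (others 138 to 148), Slc17a8 at 0.279 CPM (others 0.701 to 0.813) and St14 at 101 CPM (others 10.4 to 14.3). C3H replicate 2 was set apart by Sp110 at 2.58 CPM (others 1.27 to 1.32), H2-Ob at 1.48 CPM (others 0.861 to 0.929) and Ccl2 at 11.1 CPM (others 5.75 to 6.13). C3H replicate 3 was set apart by Ccl12 at 2.13 CPM (others 2.51 to 2.57) and C1qc at 124 CPM (others 149 to 152). C3H replicate 4 was set apart by Iapp at 7514 CPM (others 12857 to 13961). MK801 replicate 2 was set apart by H2-DMb2 at 0.111 CPM (others 0.287 to 0.393) and Nos3 at 1.97 CPM (others 2.79 to 3.18). MK801 replicate 3 was set apart by Ccl2 at 1.03 CPM (others 0.633 to 0.723) and Cdk1 at 331 CPM (others 213 to 225). MK801 replicate 4 was set apart by Eif2s3y at 201 CPM (others 80.3 to 103), Ins1 at 3737 CPM (others 8151 to 10001), Gpd1 at 83.9 CPM (others 33.9 to 41.6) and Orc6 at 69.9 CPM (others 141 to 185). MK801 replicate 5 was set apart by Slc15a2 at 4.46 CPM (others 18.1 to 26.6), 1700024P16Rik at 0.868 CPM (others 15.1 to 36.6) and Egfl7 at 35.7 CPM (others 27.1 to 28.7). The values touch calls of the report for St14, Sp110, Slc15a2, 1700024P16Rik, H2-DMb2, H2-Ob, Ccl2, Ccl12, Gpd1, Cdk1, Orc6 and Egfl7. What sets these libraries apart was not tested.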

How the results depend on the processing

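Against 493 genes higher and 460 lower in C3H tumours, the DESeq2 Wald test called 940 and 841, a filter at a mean log2 CPM of 1 called 312 and 281, an adjusted p of 0.01 left 174 and 136, and the leukocyte covariate left 71 and 129. The GC trend covariate called 751 higher and 547 lower. Leaving out 1 library at a time gave 254 to 512 higher and 197 to 458 lower, lowest without C3H replicate 2. The other scalings, limma-voom, limma on the deposited normalized values, no filter, the 9 libraries alone, the acinar covariate and the replicate block kept both counts within 1.5 times; the block called 453 and 416, and beside the 6 genes that lost their call, given in the report, 7 named genes gained one: Camk2a, Foxa2, Aif1, C1qc, Cd3e, Cd3g and Eng (adjusted p = 0.0387, 0.0452, 0.0484, 0.0373, 0.0147, 0.0347 and 0.0322). It changed no other named call. Of the 66 genes named by rule and called, 20 kept their call in all 23 alternatives, 5 more in the 22 that gave them a value and 46 in every fit that left out a library, and 0 changed sign. Of the 54 named genes not called, 17 were called in at least 1 alternative, Cd3e and Cd3g in 6 each, Plau in 5, Eng in 4 and Dlgap2 in 3. The cause of these shifts was not tested. DESeq2 gave 1 named gene no adjusted p. At these depths and numbers of libraries, genes under 1 CPM carry intervals too wide to show small differences.

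Sign changes occurred in 19 named genes, none of them called in the report, with these log2 fold changes. With limma-voom these were Slc17a7 -0.013, Wdfy1 -0.00086, 2410021H03Rik -0.077. With limma on the authors' normalized values these were Wdfy1 -0.021, 2410021H03Rik -0.099. With the 9 libraries alone it was Wdfy1 -0.0010. In the fit with the replicate block these were Wdfy1 -0.077, 2410021H03Rik -0.48, Tgif1 0.070. In the fit with the GC trend covariate these were Grin1 -0.44, Grin2c -1.20, Grin2d -0.16, Slc17a7 -0.75, Slc17a8 0.056. In the fit with the GC trend covariate and the replicate block these were Grin1 -0.53, Grin2c -1.79, Grin2d -0.47, Slc17a8 0.30, Nnt 0.0097, Iapp -0.049, Epb4.1l3 -0.019, 2410021H03Rik -0.15, C030034I22Rik -0.077, Tgif1 0.32, Myl12b 0.044. In the fit with the acinar covariate these were Wdfy1 -0.14, Epb4.1l3 -0.031, 2410021H03Rik -0.28, Zfp161 -0.034, Myl12a -0.057. In the fit with the leukocyte covariate these were Grin2b 0.058, Eif2s3y 0.11, Myl12a -0.033, Dusp6 -0.0026. With 1 library left out in turn they spanned, for Grin2c -0.83 to 3.06, Slc17a7 -0.24 to 0.60, Slc17a8 -0.16 to 0.21, Wdfy1 -0.078 to 0.13, Myl12a -0.14 to 0.24, Epb4.1l3 -0.031 to 0.15, 2410021H03Rik -0.38 to 0.37, Zfp161 -0.024 to 0.11, Grin1 -0.38 to 0.85, Grin2b -0.36 to 0.37, Ddx3y -0.36 to 0.18, Eif2s3y -0.37 to 0.11.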

Other observations

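By chromosome, the share of tested genes called in either direction was highest on chromosome 17, which carries Dlgap1 and the MHC genes, at 76 of 809 or 9.39%, and lowest among the numbered chromosomes on chromosome 10, at 26 of 769 or 3.38%. Chromosome 3 followed with 55 of 772 or 7.12%. No test of the difference between chromosomes was run.

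Besides the beta cell and unfolded protein response lists, those that held no called gene were acinar cells (19 tested, median log2 fold change 0.52), ductal cells (11 tested, 0.33), nerve and Schwann cells (7 tested, 0.08) and glutamate transport (12 tested, 0.14). Summed acinar markers spread from 15.3 to 44592 CPM within the C3H tumours, from 1186 to 23299 CPM within the MK801-treated tumours and from 60.9 to 62811 CPM within the B6 controls.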
